A study of Homo sapiens with 5 samples.

Results

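The 2 empty-vector cultures of a study of the endothelial cell specific molecule ESM1 were described here as a picture of 22Rv1 cells at baseline. A gene was included when its symbol stood in both deposited tables and its mean over the 2 vector libraries was 1 FPKM (fragments per kilobase, a level scaled to transcript length and library size) or more, and 12685 of 26506 symbols met that rule. 22Rv1 is an established human prostate carcinoma line, derived from a CWR22 xenograft that relapsed after castration of its host. The study gave the cells lentivirus with an empty vector or with a form of ESM1 and sequenced 1 RNA library per group, 72 hours after the virus. Cells grew in RPMI-1640 medium with 10% serum and antibiotics in every group. The first table holds Vector-1 (empty vector) and ESM1 (the unmodified protein). The second holds a further empty vector, Vector-2, beside ESM1-NLS and ESM1-NES, 2 forms whose names are those of nuclear localization and nuclear export signals. The labels give the same cells, virus treatment and harvest time for both vectors, so each difference between them contains the culture, the virus preparation, the table and any batch, which cannot be told apart. With 1 library in a group no difference could be tested, and each one is a measurement of these libraries.

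As background, prostate epithelium is shaped by lineage factors such as FOXA1 and HOXB13, and androgen drives its secretory genes, among them the kallikreins, of which KLK3 encodes prostate-specific antigen. Luminal prostate cells carry the keratins KRT8 and KRT18, whereas basal cells carry KRT5, KRT14 and TP63. Cultured cells also run programmes that follow their medium and density. These include sterol synthesis under the SREBP factors, replication under the E2F factors, xenobiotic metabolism under the aryl hydrocarbon receptor, and arrest and repair genes under p53.

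The first table was the shallower, with an estimated 15620000 reads for Vector-1 and 14200000 for its ESM1 partner, taken from the steps of low values. Expected counts summed to 24322216 for Vector-2, 19975113 for the nuclear localization form and 18447256 for the nuclear export form. The delivered gene was listed at 0 FPKM in both vectors and at 2437 to 3431 FPKM in the other 3 libraries. Markers of other cells were low. The summed level of 9 endothelial markers was 0.14 FPKM in Vector-1 and 0.21 FPKM in Vector-2, and that of 9 leukocyte markers was 4.09 FPKM in both. The 11 fibroblast and smooth muscle markers summed to 7.25 and 9.16 FPKM, and 8 markers of kidney packaging cells summed to 10.5 and 12.7 FPKM, most of it from HOXA10 at 7.44 FPKM in Vector-1 and 8.84 FPKM in Vector-2. Their part in the differences below was not tested.

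Both vector cultures shared the same overall state. Of all 26506 symbols, 12087 stood at 1 FPKM or more in both libraries, 155 only in Vector-1 and 901 only in Vector-2. The 12087 made up 95.3% of the 12685 tested genes. The 100 highest genes of each library had 93 in common and the 1000 highest had 873. Across genes the Spearman correlation of the levels was 0.96, a description over genes that share 2 libraries. The rule's limit fell in a dense range, with 185 genes of a mean from 1 to 1.1 FPKM just inside and 195 genes from 0.9 to 1 FPKM just outside.

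**Figure D1:**
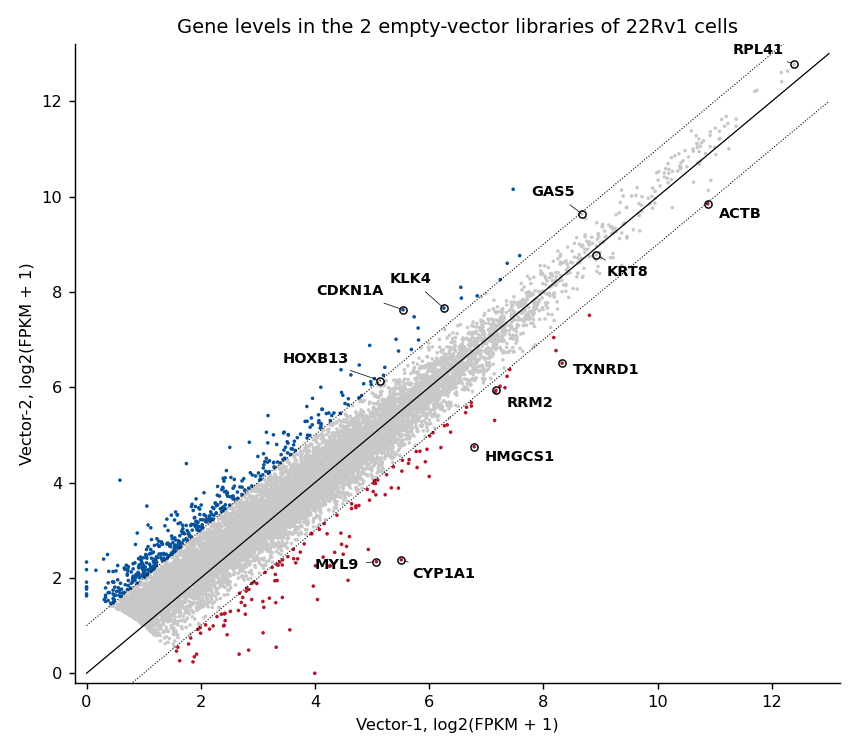
Each point is 1 of the 12685 genes, with its level in Vector-1 on the horizontal and in Vector-2 on the vertical axis, both as log2(FPKM + 1). The solid line is equality and the dotted lines a 2-fold difference; 465 genes lie at or above the upper one (blue) and 137 at or below the lower one (red), and named genes are ringed.

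The highest levels belonged to the translation machinery. Of the 20 genes with the highest mean, 16 encode cytosolic ribosomal proteins, led by RPL41 at 5366 FPKM in Vector-1 and 6986 FPKM in Vector-2, RPS18 at 4591 and 6209.9 FPKM, and RPS27 at 4608 and 5447 FPKM. The other 4 were TMSB10, an actin monomer binding protein, at 4952 and 6329.5 FPKM, the elongation factor EEF1A1 at 3414 and 4786 FPKM, the glycolytic enzyme GAPDH at 2653 and 3155 FPKM, and the pseudogene RPL13AP5 at 1539 and 2658 FPKM. All but RPS24 were higher in Vector-2, although RPL37A, at 2649.8 and 2848 FPKM, was level on the TPM scale, and RPS24 stood at 2428 FPKM in Vector-1 and 2046 FPKM in Vector-2. Many of these genes have near-identical pseudogene copies between which reads can be split, so their single values are uncertain. The 77 listed ribosomal protein genes made up 22.9% of the summed FPKM in Vector-1 and 26.5% in Vector-2.

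The prostate lineage was present in both cultures, and 13 of 14 listed lineage factors passed the limit of 1 FPKM in each. FOXA1, a pioneer factor that opens chromatin for other factors, stood at 97.8 FPKM in Vector-1 and 87.9 FPKM in Vector-2, and the epithelial ETS factor EHF at 77 and 74.2 FPKM. FOXA1, EHF, GRHL2, ELF3 and ONECUT2 each lay within 1.5-fold between the 2 vectors, as did GATA2, at 35.7 and 47.1 FPKM. KLF5, at 21.1 and 14.7 FPKM, and SOX9, at 11.2 and 8.94 FPKM, were lower in Vector-2 by less than 1.5-fold. So were PITX1, at 6.43 and 4.98 FPKM, and HOXA13, at 3.14 and 2.14 FPKM. HOXD13 was the member under the limit, at 0.21 and 0.05 FPKM.

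Of these factors 3 were at least 1.5-fold higher in Vector-2, where 14.3% of all tested genes were, and none was at least 1.5-fold lower, where 4.91% were. HOXB13, a homeobox factor that marks prostate, stood at 34.2 and 36.9 against 69.4, 75.2 and 77.9 FPKM, given here and below as Vector-1 and ESM1 against Vector-2, ESM1-NLS and ESM1-NES. The 3 values of the second table lay close together and above both of the first, and the ratio of the vectors was 2.03 (1.92 to 2.15). SPDEF, an ETS factor of secretory epithelium, stood at 56.9 and 67.6 against 113, 123 and 137 FPKM, again without overlap, with a ratio of 1.98 (1.88 to 2.1). ETV1 was lower in level, at 1.99 and 2.51 against 3.75, 3.76 and 3.02 FPKM. The intervals on these ratios are exact 95% conditional binomial intervals and cover counting error only, with the reads of Vector-1 estimated. All 3 libraries of the second table lay above both of the first for 4 of the 13 factors, against 39.9% of all tested genes, and below both for 5, against 27.7%. Separation by table was thus common among all tested genes, and where single genes below show it, it does not set them apart. The list's median difference of log2(FPKM + 1), Vector-2 less Vector-1, was -0.05, and the median of all tested genes was 0.10.

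Androgen-regulated genes were expressed in both cultures but not at the same balance. Of 34 listed genes, 29 were tested, 8 were at least 1.5-fold higher in Vector-2 and 2 at least 1.5-fold lower, and their median was 0.27. The shares of all tested genes were 14.3% at least 1.5-fold higher and 4.91% lower. The kallikreins and a few membrane proteins made up most of the higher group. KLK4, a secreted serine protease, stood at 75.4 and 90.1 against 201, 230.3 and 243 FPKM, with a ratio of 2.67 (2.53 to 2.83). KLK3 stood at 9.48 and 6.79 against 20.3, 23.9 and 18.1 FPKM, with a ratio of 2.14 (1.83 to 2.49). For both genes every library of the second table was above both of the first, and KLK2, at 27.5 and 18.1 against 43, 47.8 and 42 FPKM, had the same order. SLC45A3, a prostate membrane transporter, stood at 1.91 FPKM in Vector-1 and 5.13 FPKM in Vector-2, and PMEPA1, which dampens TGF-beta signalling, at 27.2 and 55.7 FPKM. TSC22D3, which glucocorticoids also induce, had the largest difference of the list, from 9.92 to 31.9 FPKM.

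Other androgen-regulated genes were mixed. TMPRSS2, a membrane protease, stood at 12.7 and 10.5 against 10.1, 12.3 and 10.3 FPKM, and the 2 tables overlapped. The elongation factor ELL2 was 96.6 FPKM in Vector-1 and 95.9 FPKM in Vector-2, and CAMKK2, a calcium-dependent kinase, was 26.9 and 22.1 FPKM. The co-chaperone FKBP5, the highest of the list, stood at 195 and 149.8 against 289, 277 and 221 FPKM, with a ratio of 1.48 (1.45 to 1.52) and the same order of the tables as the kallikreins. FOLH1, which encodes prostate-specific membrane antigen, stood at 46.6 FPKM in Vector-1 and 60.8 FPKM in Vector-2, and STEAP1, a metalloreductase, at 62.7 and 86.2 FPKM. The 2 genes at least 1.5-fold lower were the kinetochore gene CENPN, at 106 and 85 against 47.6, 40.3 and 45.4 FPKM, and EAF2, at 6.64 and 4.71 against 2.78, 2.91 and 3.1 FPKM. Both were also past 2-fold, as were 1.08% of all tested genes in that direction, whereas 5 members passed 2-fold on the higher side, as did 3.67% of all tested genes.

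**Figure D2:**
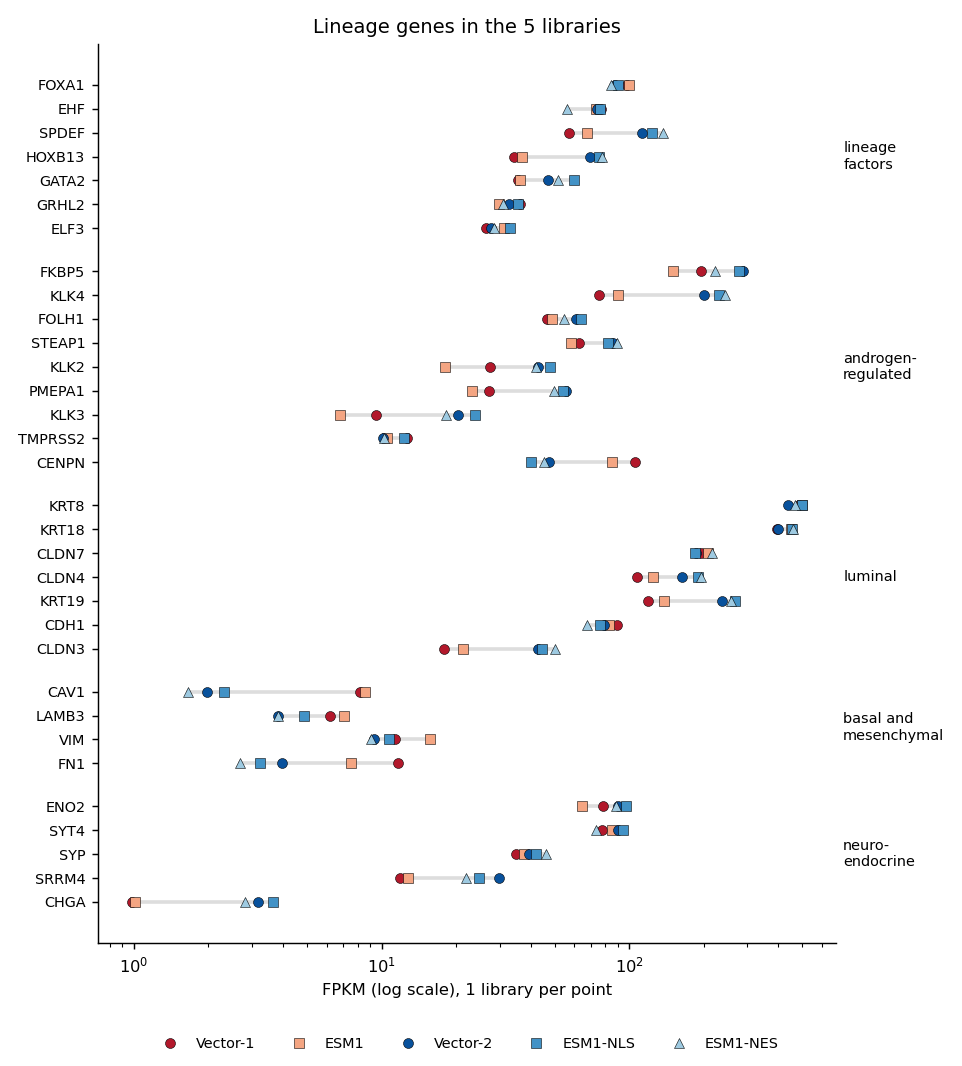
Each point is the FPKM of 1 gene in 1 of the 5 libraries, on a log axis, with genes grouped by lineage list and libraries by colour and shape. KRT8, KRT18 and FOXA1 lie close together in all libraries, whereas HOXB13, SPDEF, KLK4, KRT19, CLDN3 and SRRM4 lie higher and CAV1, FN1 and CENPN lower in the 3 libraries of the second table.

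The cells were luminal in their keratins. KRT8 stood at 484 FPKM in Vector-1 and 438 FPKM in Vector-2 and its partner KRT18 at 396 and 399.9 FPKM, while the junction gene CLDN7 stood at 196 and 186 FPKM and E-cadherin (CDH1) at 89.5 and 79.4 FPKM. Of 29 listed luminal genes, 26 were tested, 6 were at least 1.5-fold higher in Vector-2, where 14.3% of all tested genes were, and none lower. Their median was 0.19. Taken as differences from the median of genes in the same bin of length and GC content, it was 0.05. KRT19, a keratin of simple epithelia, stood at 119 and 138 against 238, 267 and 257 FPKM, with a ratio of 1.99 (1.91 to 2.08). The claudin CLDN3 stood at 17.9 and 21.3 against 43, 44.6 and 50.1 FPKM, and the junction scaffold TJP3 at 8.7 and 9.63 against 20.5, 23.9 and 23 FPKM. For these 3 genes the libraries of the 2 tables did not overlap.

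Basal and mesenchymal genes were few. KRT5, KRT14 and TP63 stayed at or under 0.14 FPKM in every library. Only 8 of 19 basal genes and 9 of 20 mesenchymal genes reached a mean of 1 FPKM, so their medians, -0.29 and 0.10, rest on the members that passed. Only 3 of the 8 basal and 7 of the 9 mesenchymal genes stood at 1 FPKM or more in both vectors. The others, among them NGFR and LAMA3, named below, passed through 1 vector alone. The basal gene DST stood at 5.78 FPKM in Vector-1 and 5.44 FPKM in Vector-2, and LAMB3 at 6.19 and 3.81 FPKM. CAV1, the coat protein of caveolae, stood at 8.2 and 8.61 against 1.98, 2.32 and 1.65 FPKM, with a ratio of 0.241 (0.194 to 0.298). The laminin chain LAMA3 stood at 2.53 and 3.62 against 0.77, 0.75 and 0.67 FPKM, and fibronectin (FN1) at 11.7 and 7.5 against 3.98, 3.24 and 2.68 FPKM. These 3 matrix and membrane genes were lower in every library of the second table, whereas NGFR, the low-affinity neurotrophin receptor, was higher, at 0.98 and 0.97 against 3.52, 4.5 and 4.36 FPKM. VIM, the mesenchymal intermediate filament, stood at 11.4 and 15.7 against 9.29, 10.7 and 9.05 FPKM, where all 3 values of the second table lay below both of the first by a small margin.

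Several neuroendocrine genes were expressed in both vectors. The glycolytic enzyme ENO2 stood at 78.6 FPKM in Vector-1 and 90.4 FPKM in Vector-2, the vesicle protein SYT4 at 77.5 and 89.9 FPKM and synaptophysin (SYP) at 35 and 39.4 FPKM, while the defining factor INSM1 stayed at or under 0.03 FPKM in every library. Of 21 listed genes 15 were tested, and the median was 0.27. At least 1.5-fold higher were 5 and lower 1, against 14.3% and 4.91% of all tested genes. SRRM4, a splicing factor of neural exons, stood at 11.9 and 12.8 against 29.8, 24.6 and 22 FPKM, with a ratio of 2.5 (2.37 to 2.65). Chromogranin A (CHGA) stood at 0.98 and 1.01 against 3.17, 3.66 and 2.81 FPKM and passed the limit only through Vector-2, as did the factor NKX2-1, at 0.44 against 1.58 FPKM. SRRM4 and CHGA had non-overlapping tables with the second higher, and the neural factor POU3F2 had the reverse order, at 8.89 and 9.69 against 3.21, 3.38 and 2.66 FPKM.

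Enzymes that make or inactivate androgens were mainly those of inactivation and of late interconversion. Of 25 listed genes 16 were tested, 3 were at least 1.5-fold higher in Vector-2 and 1 lower, near the 14.3% and 4.91% of all tested genes. The median was -0.18, which was 0.03 over the 24 not listed at 0 in both vectors. The UGT2B enzymes, which inactivate androgens by conjugation to glucuronic acid, were led by UGT2B15, at 77.2 FPKM in Vector-1 and 60.0 FPKM in Vector-2, and AKR1C3, which converts androstenedione to testosterone, stood at 21.9 and 15.9 FPKM. CYP17A1, which starts androgen synthesis from steroid precursors, was listed at 0 FPKM in all 5 libraries. UGT2B28 was higher in Vector-2, at 2.46 and 2.92 against 6.69, 7.63 and 5.36 FPKM. UGT2B10 was lower, at 23.3 and 29.7 against 15.4, 16.3 and 16.6 FPKM, but its difference of log2(FPKM + 1), -0.57, fell just short of 1.5-fold. UGT2B and AKR1C genes are close paralogs that can share reads, so their single values are uncertain.

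Against this shared identity 465 genes (3.67% of those tested) were at least 2-fold higher in Vector-2 and 137 (1.08%) at least 2-fold lower, on the log2(FPKM + 1) scale, which understates the change of low genes. At 1.5-fold the counts were 1814 (14.3%) and 623 (4.91%), and 59.3% of genes lay above 0. Within the tables the libraries were closer. ESM1 differed from Vector-1 by 2-fold at 29 genes, ESM1-NLS from Vector-2 at 14 and ESM1-NES from Vector-2 at 23, whereas the 6 pairs of libraries from different tables differed at 396 to 995 genes. Of the 465 genes, 77 were not protein-coding, as were 12 of the 137. The difference also moved with the make-up of the transcript. Protein-coding genes with under 40% GC had a median difference of -0.15 and those above 60% GC a median of 0.37, and the medians by effective length ran from 0.29 under 500 bases to -0.01 between 4000 and 8000 bases. Taken as differences from the median of genes in the same bin of length and GC content, the list medians were -1.11 for the aryl hydrocarbon receptor, -0.67 for replication, -0.52 for cholesterol, 0.62 for p53 targets and 0.42 for host genes of small nucleolar RNAs, lists that are described below.

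**Figure D3:**
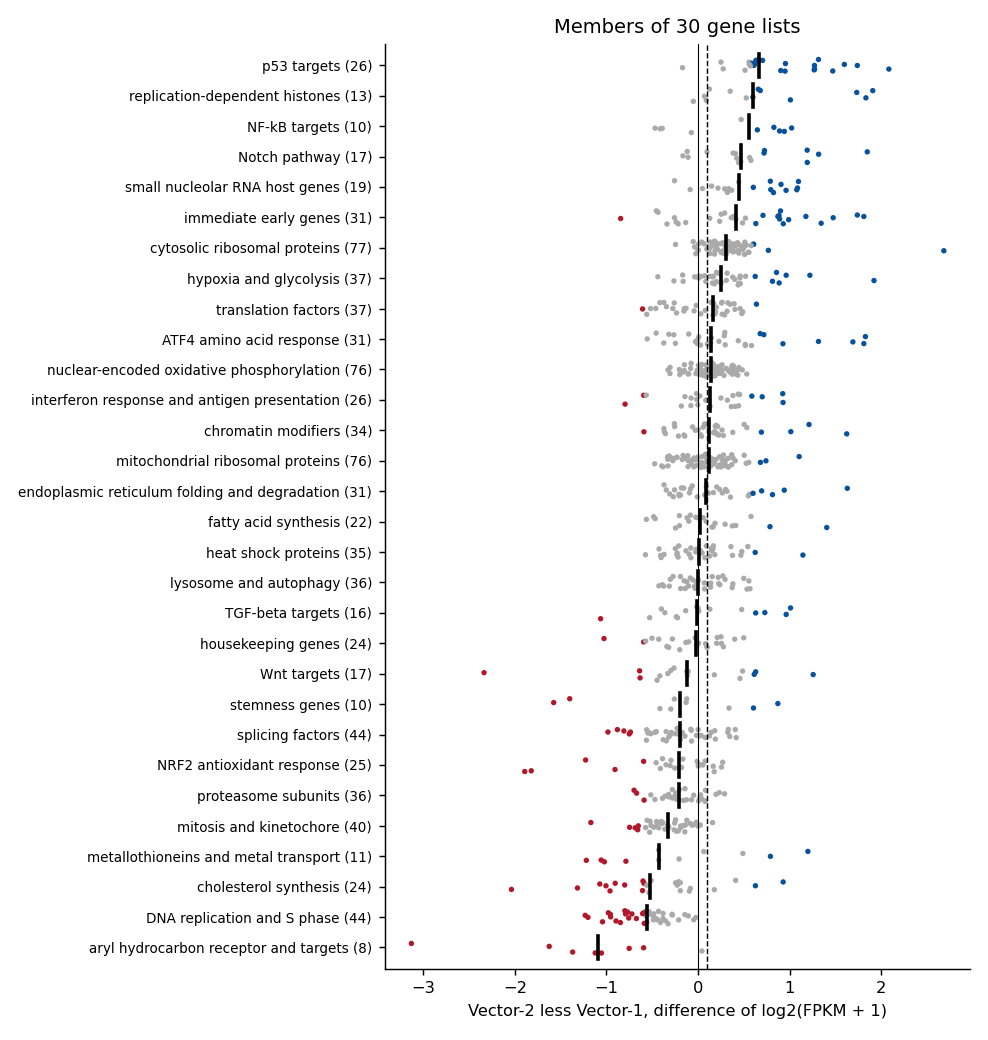
Each point is 1 tested member of 1 of 30 programme lists, placed by its difference of log2(FPKM + 1), Vector-2 less Vector-1; blue and red points are at least 1.5-fold higher and lower, black bars are list medians, and the dashed line is the median of all tested genes, 0.10. The aryl hydrocarbon receptor, DNA replication and cholesterol lists lie furthest to the left, with medians of -1.09, -0.55 and -0.52, and the p53 list furthest to the right, with 0.66.

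Genes of the aryl hydrocarbon receptor were lower in Vector-2. Of 10 listed genes of this ligand-activated factor, which senses aromatic compounds, 8 were tested. Among those, 7 were at least 1.5-fold lower, where 4.91% of all tested genes were, and the list median was -1.09. CYP1A1, the cytochrome P450 that the receptor induces most strongly, stood at 44.6 and 39.6 against 4.21, 5.86 and 4.47 FPKM. The first table was higher throughout, with a ratio of 0.0944 (0.0826 to 0.108), and its difference of -3.13 was the largest negative one of any coding gene averaging at least 5 FPKM. CYP1B1 stood at 4.14 and 4.23 against 1.36, 1.4 and 0.95 FPKM and the receptor gene AHR itself at 9.8 and 9.54 against 4.2, 3.91 and 3.09 FPKM. TIPARP, a feedback inhibitor of the receptor, stood at 13.6 and 17.7 against 7.65, 7.88 and 6.12 FPKM. ARNT, the dimer partner of the receptor, was the exception among tested members, at 19.1 and 17.8 against 19.6, 20.8 and 16.7 FPKM, with overlapping tables. CYP1A2 and UGT1A6 passed the limit only through Vector-1, at 2.64 against 0.18 FPKM and 2.1 against 0.2 FPKM. UGT1A1, which conjugates bilirubin, stood at 15.5 and 11.8 against 1.92, 2.46 and 1.26 FPKM, and since UGT1A genes share their last exons the split of reads between them is uncertain.

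Redox genes split into a lower part and an even part. TXNRD1, the cytosolic thioredoxin reductase, stood at 319.9 and 296 against 89.8, 93.2 and 79 FPKM, with a ratio of 0.281 (0.274 to 0.288). GCLM, the modifier subunit of the glutathione-making ligase, stood at 22.5 and 18.3 against 5.32, 5.56 and 4.33 FPKM, with a ratio of 0.237 (0.216 to 0.259). Both were lower in all 3 libraries of the second table, whereas GCLC, the catalytic subunit of the same ligase, stood at 45.4 and 39.3 against 46, 51.8 and 36.7 FPKM and overlapped. Haem oxygenase (HMOX1) stood at 6.74 FPKM in Vector-1 and 5.9 FPKM in Vector-2, thioredoxin (TXN) at 245 and 246 FPKM and the ferritin chain FTH1 at 545 and 574 FPKM. Of 25 tested genes of the NRF2 antioxidant list, named after the factor that drives them, 5 were at least 1.5-fold lower and none higher, with a median of -0.20. The lower members included NQO1, at 31.9 and 27.0 against 20.8, 23.1 and 21.05 FPKM. They also included ABCC2, at 14.75 and 13.9 against 7.4, 8.01 and 5.97 FPKM. OSGIN1, also lower, passed the limit only through Vector-1, at 3.45 FPKM against 0.9 FPKM in Vector-2. The list of metallothioneins, small metal-binding proteins, and metal transport genes had 4 of 11 tested members at least 1.5-fold lower and 2 higher, all 6 of them metallothioneins. Beside the counts of both lists, 4.91% of all tested genes were at least 1.5-fold lower and 14.3% higher. MT1E stood at 16.9 and 17.5 against 7.81, 8.39 and 8.61 FPKM and MT1G at 15.9 and 15.5 against 7.1, 8.09 and 7.47 FPKM, with closely related copies that make the single values uncertain.

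Sterol synthesis genes were lower in Vector-2 at many steps. Of 24 cholesterol genes, all tested, 10 were at least 1.5-fold lower and 2 higher, and 4 were at least 2-fold lower, with a median of -0.52. HMGCS1, the synthase that makes the precursor of mevalonate, stood at 109 and 124 against 25.9, 20.1 and 21.1 FPKM. The values of the first table were several times those of the second, and the ratio was 0.237 (0.228 to 0.246). IDI1, an isomerase of the isoprenoid units, stood at 82 and 99.3 against 32.3, 27.1 and 31.7 FPKM, with a ratio of 0.394 (0.375 to 0.416), and squalene epoxidase (SQLE) at 32.5 and 34.4 against 16.2, 13.9 and 16.3 FPKM. These 3 genes had no overlap between the tables, but the pathway was not uniform. FDFT1, the squalene synthase, stood at 233 FPKM in Vector-1 and 204 FPKM in Vector-2, and SREBF2, which encodes the main sterol-regulated factor, at 69.9 and 65.9 FPKM. TM7SF2 and HSD17B7, enzymes of late sterol steps, were higher in Vector-2, at 26.9 and 38.5 against 42, 50.6 and 58.8 FPKM and 13.4 and 20.3 against 26.4, 24.4 and 25.7 FPKM. HSD17B7 has a transcribed pseudogene copy, HSD17B7P2, so its value is uncertain.

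Fatty acid synthesis did not share that direction. SREBF1, the SREBP gene tied to fatty acid synthesis, stood at 16.5 and 21.4 against 45.4, 42.6 and 53.2 FPKM, with a ratio of 2.75 (2.59 to 2.93). Its target FASN, the fatty acid synthase, stood at 63 and 68.4 against 109, 89.4 and 107 FPKM, with a ratio of 1.73 (1.69 to 1.78). Both were higher in each library of the second table than in either of the first. Of 22 tested genes on that list 2 were at least 1.5-fold higher, where 14.3% of all tested genes were, and none lower, where 4.91% were. The median was 0.03, so the list as a whole lay near the median of all genes.

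Replication genes were lower in Vector-2 as a block. All 44 listed genes were tested and all 44 lay below 0, where 59.3% of all tested genes lay above 0, with a median of -0.55. At least 1.5-fold lower were 18, against 4.91% of all tested genes. For 40 of the 44 all 3 libraries of the second table lay below both of the first, against 27.7% of all tested genes. RRM2, the regulatory subunit of ribonucleotide reductase, which supplies deoxynucleotides, stood at 143 and 128 against 60.2, 50.7 and 54.2 FPKM, with a ratio of 0.422 (0.407 to 0.438). CLSPN, which relays replication stress to the checkpoint kinase, stood at 12.4 and 9.76 against 4.82, 3.9 and 3.52 FPKM, with a ratio of 0.389 (0.36 to 0.422), and the cyclin CCNE2 at 35.7 and 28.7 against 17.6, 16 and 16 FPKM. The helicase subunits MCM2 and MCM6 stood at 81.2 and 76.6 against 48.8, 50.7 and 55.6 FPKM and at 52.2 and 45.8 against 30.5, 28.1 and 30.1 FPKM. The sliding clamp PCNA, the most abundant member, stood at 385 and 368 against 266, 229 and 268 FPKM. For these 6 genes both libraries of the first table lay above all 3 of the second. The smallest differences were those of the polymerase subunit POLD1, at 22.3 and 25.8 against 21.9, 24.9 and 25.8 FPKM, and the helicase component GINS2, at 61.3 and 59.6 against 59.3, 49.2 and 68.5 FPKM. In bulk RNA, fewer cells in S phase and less RNA of these genes per cell cannot be told apart.

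Many of these genes carry sites for E2F, the factor that turns replication genes on. In RefSeq promoter windows of GRCh38.p14, from 250 bases before to 50 after each annotated start, the sites TTTCCCGC, TTTGGCGC and TTTCGCGC were searched on both strands, and TTTGGCGCGAAA holds one on each strand that overlap. Of 38 replication genes with a window, 20 (52.6%) held a site, against 5.85% of 10098 tested genes with a window and 2.74% of all 35116 windows. The 20 genes with a site had a median difference of -0.56 and the 18 without one a median of -0.44. Over all tested genes with a window the medians were -0.04 with a site and 0.09 without. Stretches of the windows of 5 members are shown because they hold the sites, with the sites in capitals and read as given or as their reverse complement. MCM6 is from chromosome 2 (chr2:135876509-135876618), MCM2 from chromosome 3 (chr3:127598351-127598430), CDC6, which loads the helicase, from chromosome 17 (chr17:40287819-40287898), CLSPN from chromosome 1 (chr1:35769969-35770038) and E2F1 from chromosome 20 (chr20:33686376-33686455), where MCM2 and CDC6 are on the plus strand and the others on the minus strand.
MCM6: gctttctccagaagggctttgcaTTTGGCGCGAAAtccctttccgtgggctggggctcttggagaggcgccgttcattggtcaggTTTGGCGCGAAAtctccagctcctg
MCM2: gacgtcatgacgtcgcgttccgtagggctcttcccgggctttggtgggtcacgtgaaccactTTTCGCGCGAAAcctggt
CDC6: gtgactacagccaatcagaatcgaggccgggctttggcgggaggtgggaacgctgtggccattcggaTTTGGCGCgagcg
CLSPN: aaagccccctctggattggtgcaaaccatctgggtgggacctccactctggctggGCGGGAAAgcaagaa
E2F1: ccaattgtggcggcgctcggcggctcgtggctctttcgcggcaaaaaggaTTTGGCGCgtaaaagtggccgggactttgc

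CDC6 stood at 51.2 and 50.5 against 34.2, 30.4 and 33.9 FPKM and E2F1 itself at 35.8 and 34.7 against 25.5, 23.7 and 29.1 FPKM, both lower in the second table without overlap. The window of MCM6 holds the overlapping pair of sites in 2 copies, both upstream of the start and in a stretch that does not reach it, and that of MCM2 holds a pair just past the start. A match is a description of these letters and not of binding in these cells.

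The mitosis, splicing and proteasome lists were lower to a smaller degree. Of 40 mitosis and kinetochore genes 38 lay below 0 and 5 were at least 1.5-fold lower, with a median of -0.33. The share of all tested genes at least 1.5-fold lower was 4.91%, and 59.3% lay above 0. ANLN, a scaffold of the cleavage furrow, stood at 98.5 and 82.1 against 43.2, 37.6 and 35.6 FPKM and the midzone protein PRC1 at 123 and 104 against 75.9, 77.3 and 79.9 FPKM. Splicing factors had a median of -0.20, with 5 of 44 at least 1.5-fold lower, 4 of them serine and arginine rich proteins. SRSF2 stood at 225 and 184 against 113, 113 and 115 FPKM and SRSF1 at 123 and 104 against 69.6, 68.7 and 65.9 FPKM, and the first table was higher in each. Proteasome subunits had the same median of -0.20, with 3 of 36 at least 1.5-fold lower, among them the regulatory subunit PSMD12 at 33.4 and 32.9 against 20.2, 20.6 and 18.8 FPKM.

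Several of the largest lower values fell outside these programmes. MYL9, a myosin light chain, stood at 32.7 and 29.6 against 4.06, 5.77 and 6.19 FPKM, with a ratio of 0.124 (0.102 to 0.155), and beta-actin (ACTB) at 1877 and 2041 against 921, 1007 and 1121 FPKM, with a ratio of 0.49 (0.485 to 0.498). ACTB is a common reference gene, and the 5 values fell into the 2 tables without overlap. The other housekeeping genes were closer, with a list median of -0.02 over 24 genes and GAPDH at a ratio of 1.19 (1.18 to 1.2). B2M was the second member at least 1.5-fold lower, at 260 and 209 against 172, 146 and 172 FPKM, and no member was 1.5-fold higher. LBH, a transcription cofactor, stood at 22.9 and 22.9 against 2.86, 3.42 and 2.91 FPKM, and DKK1, a secreted Wnt antagonist, at 29.6 and 33.4 against 5.05, 6.77 and 6.86 FPKM. ANXA3, a calcium-dependent membrane protein, stood at 10.8 and 11.4 against 0.88, 1.04 and 0.6 FPKM and the receptor kinase MET at 18.1 and 17.8 against 3.74, 3.35 and 2.48 FPKM. For MYL9, LBH, DKK1, ANXA3 and MET both values of the first table were above all 3 of the second, as they were for ALDH1A1, an aldehyde dehydrogenase used as a stem cell marker, at 43 and 46.1 against 13.8, 16.7 and 15.4 FPKM. CGA, the common chain of glycoprotein hormones, and the chemokine CXCL13 also varied inside the first table, at 14.7 and 8.59 against 2.55, 1.99 and 3.14 FPKM and 18.2 and 10.7 against 3.78, 4.75 and 2.7 FPKM.

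**Figure D4:**
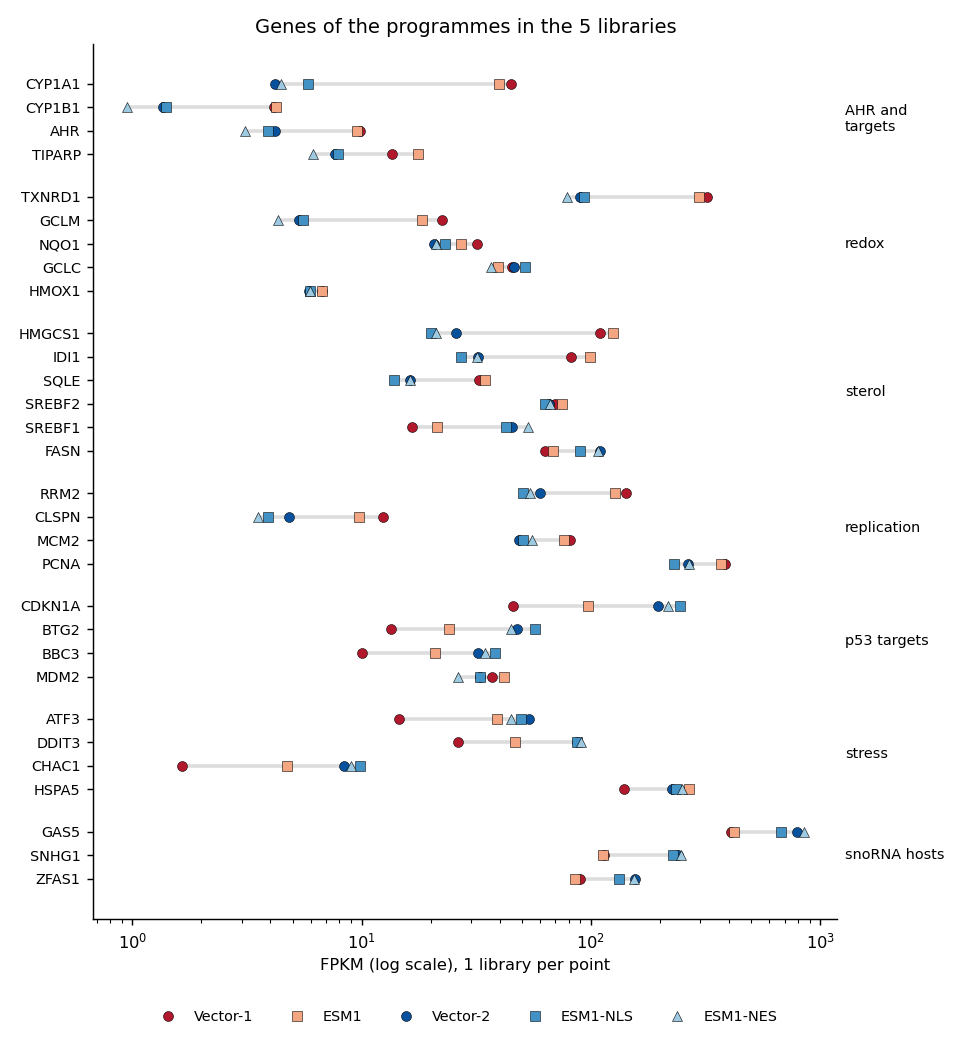
Each point is the FPKM of 1 gene in 1 of the 5 libraries, on a log axis, with genes grouped by programme and libraries by colour and shape. The aryl hydrocarbon receptor and replication genes and HMGCS1, IDI1 and SQLE are lower in all 3 libraries of the second table and SREBF1 and FASN higher, whereas for CDKN1A, BTG2, BBC3, ATF3 and CHAC1 the ESM1 library of the first table lies between Vector-1 and the second table, and HSPA5 is highest in ESM1.

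Genes of the p53 response were higher in Vector-2. Of 27 listed genes 26 were tested, 25 lay above 0, 18 passed 1.5-fold on the higher side and 8 passed 2-fold, with none lower and a median of 0.66. Among all tested genes 59.3% lay above 0, 14.3% passed 1.5-fold on the higher side and 3.67% passed 2-fold. CDKN1A, the cyclin-dependent kinase inhibitor p21, stood at 45.6 and 97.2 against 196, 246 and 218 FPKM, with a ratio of 4.31 (4.08 to 4.56). BTG2, an antiproliferative gene, stood at 13.5 and 24 against 47.4, 57.2 and 44.6 FPKM, with a ratio of 3.51 (3.21 to 3.85), and the apoptosis gene BBC3 (PUMA) at 10.0 and 20.9 against 32.3, 38.3 and 34.5 FPKM, with a ratio of 3.23 (2.81 to 3.7). In these 3 genes Vector-1 was the lowest of the 5 libraries and ESM1, from the same table, lay between it and the second table. The list's median difference of ESM1 less Vector-1 was 0.56, close to that of the vectors, and the mean of ESM1-NLS and ESM1-NES less ESM1 had a median of 0.26. SESN1, TP53INP1 and PHLDA3, further p53 targets, stood at 7.6, 9.05 and 12.4 FPKM in Vector-1 and at 19.7, 26.8 and 31.4 FPKM in Vector-2. MDM2, the ligase that degrades p53 and is itself a target, was the exception, at 37.1 and 41.6 against 32.9, 32.9 and 26.4 FPKM.

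Lists of the amino acid and endoplasmic reticulum stress responses lay near all genes, with a few members well above. DDIT3, which encodes the stress factor CHOP, stood at 26.4 and 46.5 against 87.3, 86.9 and 91 FPKM, with a ratio of 3.31 (2.95 to 3.72). CHAC1, a glutathione-degrading enzyme of the same response, stood at 1.65 and 4.74 against 8.4, 9.8 and 8.99 FPKM, and ATF3 at 14.5 and 39 against 53.4, 49.7 and 45 FPKM. For ATF3 and CHAC1 the ESM1 library again lay well above Vector-1. Of 31 tested genes of the ATF4 list, named after the factor that answers amino acid shortage, 7 passed 1.5-fold and 4 passed 2-fold on the higher side, while the median, 0.15, was near that of all genes. On that side 14.3% of all tested genes passed 1.5-fold and 3.67% passed 2-fold. HERPUD1, which serves degradation at the endoplasmic reticulum, stood at 23.7 and 51.3 against 75.5, 74 and 83.1 FPKM, and the chaperone HSPA5 at 139 and 268 against 226, 235 and 249 FPKM. The folding list had a median of 0.09, with 5 of 31 members at least 1.5-fold higher, a share near the 14.3% of all tested genes, and on the comparison of the ESM1 libraries its median was -0.15.

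Hypoxia genes were spread. Of 37 tested genes, 32 lay above 0, against 59.3% of all tested genes. At least 1.5-fold higher were 7, where 14.3% of all tested genes were, and none was 1.5-fold lower. The median was 0.25, but 0.10 within bins of length and GC content and 0.15 on the comparison of the ESM1 libraries. DDIT4, an inhibitor of the growth kinase mTOR, stood at 30.1 and 42.1 against 117, 96.4 and 85.7 FPKM, with a ratio of 3.88 (3.6 to 4.19), and BNIP3, a mitophagy receptor, at 27.9 and 28.5 against 66.3, 39.8 and 42.8 FPKM, with a ratio of 2.38 (2.19 to 2.6). Both were highest in Vector-2. ANKRD37, another hypoxia target, stood at 1.61 and 3.05 against 3.82, 1.63 and 1.71 FPKM, with ESM1 above both tagged forms.

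Host genes of small nucleolar RNAs, whose introns hold guides for ribosomal RNA modification, were higher in Vector-2. Of 21 listed 19 were tested, 17 lay above 0, 9 were at least 1.5-fold higher and none lower, with a median of 0.44. Among all tested genes 59.3% lay above 0 and 14.3% were at least 1.5-fold higher. For 17 all 3 libraries of the second table lay above both of the first, against 39.9% of all tested genes. GAS5 stood at 407 and 422 against 794, 675 and 846 FPKM, with a ratio of 1.95 (1.88 to 2.03), SNHG1 at 114 and 112 against 241, 227 and 248 FPKM, with a ratio of 2.12 (2.02 to 2.24), and ZFAS1 at 89.5 and 85 against 155, 133 and 154 FPKM, with a ratio of 1.74 (1.61 to 1.85). SNHG9 and SNHG4 were the 2 members below 0, SNHG9 at 21.8 and 27.3 against 18.1, 14.8 and 17.2 FPKM. Reads of a small nucleolar RNA inside an intron and of its host can be hard to separate at gene level.

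Cytosolic ribosomal protein genes lay in the same direction by less. Of 77, 72 lay above 0, against 59.3% of all tested genes, with a median of 0.31. Within bins of length and GC content the median was 0.14. Only 4 were at least 1.5-fold higher, a smaller share than the 14.3% of all tested genes. RPL13A stood at 659 and 708 against 1122, 1111 and 1307 FPKM, RPLP1 at 1633 and 1829 against 2479.9, 2398 and 3182 FPKM and RPS16 at 1206 and 1269.7 against 1802, 1697 and 2271 FPKM. RPL21 stood apart at 176 and 267 against 1137, 1069 and 1671 FPKM, and since it has many near-identical processed copies this value is uncertain. Nuclear-encoded oxidative phosphorylation genes, at 0.15, and mitochondrial ribosomal proteins, at 0.12, had medians near that of all genes, and translation factors had 0.16, which was -0.08 within the bins.

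Many ribosomal protein genes and some host genes have the terminal oligopyrimidine start. It is a cytosine followed by a run of pyrimidines at the first base of the RNA, which ties translation of an RNA to growth signals. A start was counted when a cytosine and at least 4 further pyrimidines began at the annotated first base. It was present in 46 of 61 ribosomal protein genes with a window (75.4%), in 5 of 16 host genes (31.3%) and in 13 of 29 translation factors (44.8%), against 7.48% of tested genes with a window and 4.07% of all windows. Tested genes with such a start had a median difference of 0.17 and those without one of 0.07. Within the lists the split was not uniform. The medians were 0.60 with the start and 0.79 without among host genes, 0.30 and 0.33 among ribosomal protein genes, and 0.29 and -0.20 among translation factors. The elongation factor EEF1A1 stood at 3414 and 3607 against 4786, 4685 and 5013 FPKM, and the initiation factors EIF4G2 and EIF5 were lower in the second table, at 303 and 291 against 199, 198 and 176 FPKM and 69.8 and 67.4 against 47, 44.7 and 43.2 FPKM. The starts of 6 members are shown because they hold the run, from 30 bases before the start, with the pyrimidine run in capitals. SNHG12 is on the minus strand at chr1:28581859-28581903, ZFAS1 on the plus strand at chr20:49278612-49278656, SNHG5 on the minus strand at chr6:85678719-85678763, RPL13A on the plus strand at chr19:49487578-49487622, RPLP1 on the plus strand at chr15:69452788-69452832 and RPS16 on the minus strand at chr19:39435935-39435979.
SNHG12: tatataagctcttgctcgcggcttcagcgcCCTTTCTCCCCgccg
ZFAS1: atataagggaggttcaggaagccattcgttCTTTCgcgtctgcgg
SNHG5: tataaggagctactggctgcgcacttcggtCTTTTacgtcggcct
RPL13A: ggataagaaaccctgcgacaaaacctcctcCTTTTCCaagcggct
RPLP1: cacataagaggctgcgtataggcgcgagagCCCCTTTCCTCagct
RPS16: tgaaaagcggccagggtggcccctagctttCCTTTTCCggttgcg

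SNHG12 stood at 11.2 and 15.1 against 25, 29.1 and 27.2 FPKM and SNHG5 at 304 and 308 against 462, 394 and 525 FPKM, higher in the second table. Of 3 other motifs searched on both strands, the xenobiotic response core TNGCGTG stood in 2 of 7 aryl hydrocarbon receptor genes and in 9.72% of tested genes, with medians of -0.98 for those 2 and -1.05 for the 5 without it. The sterol element TCACNCCAC stood in 1 of 18 cholesterol genes and in 1.49% of tested genes, with -0.08 for that gene and a median of -0.54 for the 17 without it. The hypoxia core ACGTG stood in 23 of 33 hypoxia genes (69.7%) and in 32.8% of tested genes, with medians of 0.22 with it and 0.16 without.

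Signalling lists differed from one another. Of 26 Notch genes 17 were tested, 14 lay above 0, against 59.3% of all tested genes, and 6 were at least 1.5-fold higher. Their median was 0.47. HES2, at 0.81 FPKM in Vector-1 and 5.51 FPKM in Vector-2, LFNG, at 0.44 and 2.29 FPKM, and DTX4, at 0.73 and 1.39 FPKM, passed the limit only through Vector-2, and HES2 and LFNG are among the 6. The receptor NOTCH3 stood at 3.78 and 4.31 against 10.9, 10.3 and 10.5 FPKM, with a ratio of 2.88 (2.61 to 3.19), and HES6, a factor of the HES family, at 7.06 and 9.14 against 17.4, 17.7 and 19.6 FPKM. HES7, a HES factor that was not on the list, stood at 2.36 and 3.61 against 20.1, 20.7 and 23.4 FPKM. Immediate early genes had 13 of 31 tested members at least 1.5-fold higher and 1 lower, with a median of 0.41, among them JUN at 10.6 and 17.6 against 31.1, 30.8 and 27.3 FPKM and JUND at 21.4 and 28.6 against 55.9, 56.8 and 52.9 FPKM. NF-kB targets had 5 of 10 tested members at least 1.5-fold higher, among them the feedback inhibitor NFKBIA at 36.2 and 37.9 against 65, 71.4 and 69.8 FPKM and NFKB2 at 9.46 and 11.3 against 19.1, 23 and 23 FPKM. Of 25 listed NF-kB targets 15 did not reach the limit, so this count rests on the members that passed. Wnt targets had 3 of 17 tested members at least 1.5-fold higher and 3 lower, with a median of -0.12, and ASCL2 passed the limit only through Vector-2, at 0.26 against 2.01 FPKM. TGF-beta targets had 4 of 16 higher and 1 lower, with a median of -0.01. Beside these list counts, 14.3% of all tested genes were at least 1.5-fold higher and 4.91% lower.

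Replication-dependent histone genes were low and higher in Vector-2, opposite to the replication genes, with a median of 0.60. Among 13 tested, 7 were at least 1.5-fold higher, against 14.3% of all tested genes. HIST3H2A stood at 7.87 and 9.7 against 32.3, 23.4 and 29.8 FPKM and HIST1H2AC at 1.8 and 5.04 against 8.97, 8.53 and 7.76 FPKM. Most of their messages carry no poly(A) tail, how RNA was selected is not given, and near-identical copies share reads, so these values are uncertain.

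Of the 12 largest positive differences among coding genes that average at least 5 FPKM, several were signalling ligands. TGFB3, a TGF-beta ligand, stood at 4.69 and 4.93 against 25.7, 28.4 and 24.3 FPKM, with a ratio of 5.48 (4.81 to 6.28), the ephrin ligand EFNA3 at 8.05 and 8.82 against 41.4, 45.9 and 48.1 FPKM, with a ratio of 5.14 (4.46 to 5.96), and endothelin 2 (EDN2) at 16.2 and 26.4 against 63, 78.6 and 75.8 FPKM. All 3 separated by table, and GADD45G, a growth arrest gene, did too, at 6.21 and 11.9 against 27.7, 30.7 and 28 FPKM. PHGR1 stood at 1.08 and 2.57 against 10.4, 9.35 and 11.8 FPKM. Alpha globin (HBA1) stood at 20.9 and 22.2 against 81.5, 101 and 115.9 FPKM and has a near-identical neighbour, HBA2. NUDT4P1 had the largest value, at 0.5 and 7.65 against 15.6, 15.9 and 24.4 FPKM, and as a near copy of NUDT4 it is uncertain.

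Some programmes were nearly level. The median was 0.00 for 36 lysosome and autophagy genes, 0.02 for 35 heat shock genes, 0.03 for fatty acid synthesis and -0.02 for housekeeping genes. None of the lysosome and autophagy genes and none of the oxidative phosphorylation genes was 1.5-fold apart in either direction, and interferon and antigen presentation genes had 4 of 26 higher and 2 lower with a median of 0.13, which was -0.09 within bins of length and GC content. Chromatin modifiers had 4 of 34 higher and 1 lower, with a median of 0.12. Beside these list counts, 14.3% of all tested genes were at least 1.5-fold higher and 4.91% lower. Of the stemness list, 10 of 19 were tested, with 2 higher and 2 lower and a median of -0.19, which was 0.03 over all 19.

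The libraries with ESM1 forms gave a second reading of the difference between the tables that shares no library with the vectors, although tables and any batches are the same. The mean of ESM1-NLS and ESM1-NES less ESM1 was at least 2-fold higher at 396 genes (3.12%) and lower at 142 (1.12%), and at 1.5-fold the counts were 1611 (12.7%) and 722 (5.69%), with 56.1% of genes above 0. These libraries differ in the ESM1 form as well as in the table. Of the 465 genes higher in Vector-2, 257 were also at least 2-fold higher in the tagged forms, and both tagged forms lay above ESM1 for 458 (98.5%), against 48.5% of all tested genes. Of the 137 lower genes, 99 were also at least 2-fold lower, and both forms lay below ESM1 for 134 (97.8%), against 36.2%. By list, the medians in this second reading were -1.17 for the aryl hydrocarbon receptor, -0.67 for cholesterol, -0.53 for replication and 0.39 for host genes, near those of the vectors, while p53 targets had 0.26 against 0.66 and histones 0.20 against 0.60. Whether the 2 readings differed could not be tested with 1 library per group.

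**Figure D5:**
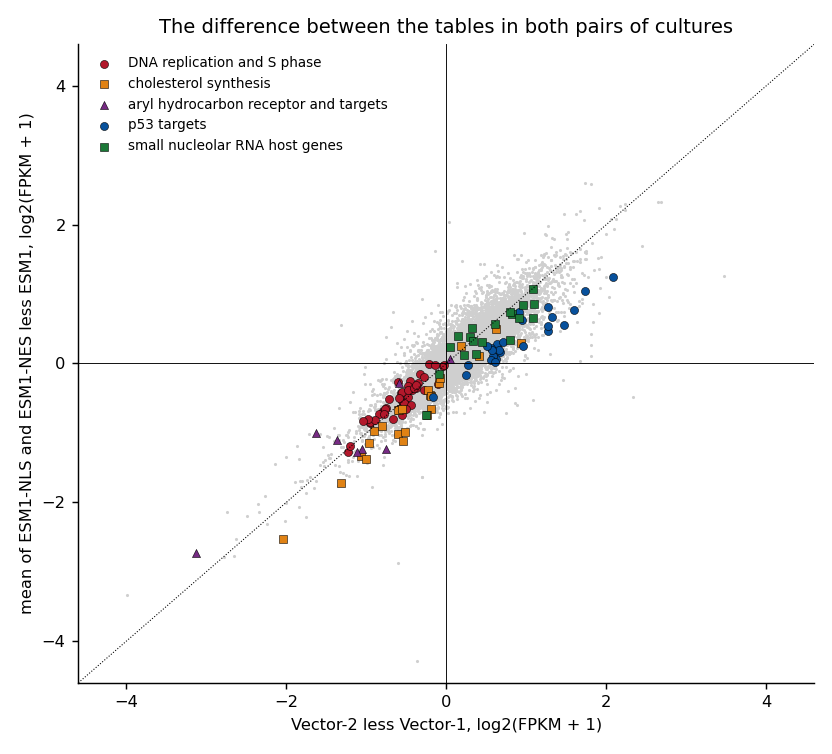
Each grey point is 1 of the 12685 genes, placed by its difference between the vectors (horizontal) and between the libraries with an ESM1 form (vertical), both second table less first on the log2(FPKM + 1) scale; coloured points are members of 5 lists and the dotted line is equality. Replication, cholesterol and host genes lie along the line, whereas p53 targets lie below it, with medians of 0.66 and 0.26.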

How the data were processed

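RNA of 22Rv1 cells was sequenced in 5 libraries, 1 per group, and groups were taken from the sample titles. The submitters' processing notes name Trimmomatic, Bowtie2, RSEM and the build hg19, while strandedness and RNA selection are not given. The second table holds expected counts, TPM and FPKM, with the authors' fold change (a ratio) and a score, per the file headers. The fold change and the score were not used. The deposited first table names no unit. Its values were taken as FPKM, and the depths estimated for Vector-1 and ESM1 rest on that choice. At the depth of best fit, low values lay within 0.15 reads of whole reads for 88.9% of 99 values in Vector-1. The share in ESM1 was 91.9% of 111. This fit cannot settle the unit, because another length-scaled unit would fit as well at another depth. The same search on the deposited FPKM of Vector-2 gave 24180000 reads, where the authors' expected counts sum to 24322216. The authors' TPM was not used, and the TPM scale below was made from FPKM.

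Differences are of log2(FPKM + 1) over genes that average at least 1 FPKM in the vectors, counted at 2-fold and 1.5-fold. Ratios of FPKM carry exact 95% conditional binomial (Clopper-Pearson) intervals on reads, rounded to whole numbers, which cover counting error only. The first table gives no counts. The reads of Vector-1 were therefore estimated from its values, the effective lengths of the second table and its estimated depth. The error of those estimates is not in the intervals. The members, the 41 gene lists and the alternatives were chosen with earlier results of these data known. The genes named were drawn from the 20 highest, all lineage factors and the 5 highest of each other lineage list. They were also drawn from the 12 protein-coding genes with the largest difference in each direction averaging at least 5 FPKM. Up to 5 of each programme list with the largest difference were a further source. Not every member of these sets is named in the text. Other list members named were chosen after their values were seen. Y-linked genes and XIST were left out. A few genes are not reported here, and list counts are without them. Of the symbols, 25328 matched RefSeq genes of GRCh38.p14, which gave biotypes and promoter windows, and GC content came from GENCODE 29 transcripts (97.8% of tested genes). Those builds differ from hg19 and no coordinates were converted. The scripts were tested on simulated data. Python 3.11.15, numpy 2.4.6, pandas 2.3.3, scipy 1.17.1 and matplotlib 3.10.9 were used.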

Additional observations from a re-analysis of the deposited data

How the results depend on the processing

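With 1 library per group the counts are descriptions, and several depend on the limits chosen. Against 465 genes at least 2-fold higher and 137 lower in Vector-2, a pseudocount of 0.1 FPKM gave 927 and 189, a pseudocount of 5 FPKM 83 and 60, a mean of 5 FPKM or more 221 and 95, and protein-coding genes at that mean 191 and 91. The TPM scale gave 516 and 209, centring on the median 336 and 176, bins of length and GC content 259 and 165, and the 1.5-fold limit 1814 and 623. Without a filter the counts were 506 and 144. Of the 20 highest genes by FPKM, 11 were among the 20 highest by expected count in Vector-2, which is not per length. List medians near 0 changed sign with the scaling. On the TPM scale the folding list had -0.01, heat shock -0.08, fatty acid synthesis -0.08 and lysosome and autophagy -0.10. In the bins the last 3 were also below 0, as were translation factors at -0.08, mitochondrial ribosomal proteins at -0.06, interferon genes at -0.09 and mesenchymal genes at -0.14. Without a filter the median was 0.079 for basal genes, 0.03 for androgen enzymes, 0.03 for stemness genes and 0.001 for TGF-beta targets, and at a mean of 5 FPKM or more it was -0.0736 for NF-kB targets, where fewer or other members entered. No direction is given to these lists. With ESM1 forms in place of the vectors, ANKRD37 was -0.60, HSPA5 -0.15 and HIST1H2AG -0.25, the reverse of the vectors, and the folding, fatty acid and chromatin lists were also below 0, and the cause was not tested. ESM1-NLS alone against ESM1, added after the data were seen, gave 433 genes higher and 119 lower, and ESM1-NES alone 397 and 200, against 396 and 142 for their mean. Depth limits genes near 1 FPKM, and the first table's unit was not given and was taken as FPKM. No paired analysis was possible because each group has 1 library.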

Other observations

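The KEGG pathway annotation in the deposited table gave a grouping that the gene lists did not use. Among 178 pathways with 15 or more tested genes, the lowest medians of Vector-2 less Vector-1 were those of mismatch repair, at -0.41 over 22 genes, DNA replication, at -0.41 over 35 genes, steroid hormone biosynthesis, at -0.28 over 23 genes, and homologous recombination, at -0.28 over 27 genes. Mismatch repair and DNA replication share polymerase, clamp and clamp loader genes. The highest medians were those of neuroactive ligand and receptor interaction, at 0.38 over 58 of 271 annotated genes, ABC transporters, at 0.35 over 24 of 44, axon guidance, at 0.33 over 94 of 129, and hedgehog signalling, at 0.32 over 26 of 56. Steroid biosynthesis had -0.19 over 17 genes, with 4 at least 1.5-fold higher and 6 lower, against -0.52 for the cholesterol list. The p53 signalling pathway had 0.26 over 62 genes, against 0.66 for the p53 list, and cell cycle -0.16 over 121 genes. The ribosome, at 0.30 over 86 genes, and the proteasome, at -0.20 over 41 genes, lay near their lists. Pathways with few tested members rest on the genes that passed the limit of 1 FPKM.

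Some genes outside the lists and rules, chosen after their values were seen, also separated by table. TXNIP, which binds thioredoxin and lowers glucose uptake, stood at 92.9 and 99.6 FPKM in Vector-1 and ESM1 and at 273, 289 and 229.7 FPKM in Vector-2, ESM1-NLS and ESM1-NES. The actin-binding genes TMSB4X and TPM1 had the reverse order, TMSB4X at 20.9 and 19.03 against 6.67, 6.25 and 6.98 FPKM and TPM1 at 124.7 and 126.5 against 71.1, 69.9 and 70.3 FPKM. ANKRD1, a gene induced by the factor YAP, stood at 7.52 and 7.39 against 0.80, 0.82 and 0.57 FPKM.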
